A study of Homo sapiens with 18 samples.

Results

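MX1 and MX2 are neighbouring paralogous genes on chromosome 21 that encode the human MX dynamin-like GTPases. They were located by their Ensembl identifiers, ENSG00000157601 (MX1) and ENSG00000183486 (MX2), and are 2 of the 16472 genes of the deposited expression table. Both passed the filter on low values and so belonged to the 13280 genes tested. Levels are given in RPKM, reads scaled to gene length and library size, and the filter asked for 1 RPKM or more in at least 3 libraries. In untreated cells MX1 stayed under 0.5 RPKM and MX2 at or near 0, so both passed that filter only through the interferon-treated libraries.

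The libraries came from NIKS cells, an established line of spontaneously immortalised human keratinocytes, grown over irradiated mouse 3T3 feeder fibroblasts, and polyA RNA was sequenced with strand-specific libraries. The 6 groups of 3 biological replicates were SP100 wild type (WT) and SP100 knockout (KO) cells, each untreated (0 h) or treated with 25 ng/mL of interferon alpha 2a, a human type I interferon, for 12 or 48 h. All WT libraries carry the line designation Vec2 and all KO libraries the designation KO5, so genotype and line cannot be told apart. Untreated cells were labelled at 0 h alone, so that time in interferon and time in culture cannot be told apart either. The labels do not say whether the replicates were separate cultures, and the p-values measure the spread between these libraries.

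The MX proteins are large GTPases that assemble into oligomers and restrict viruses. The MX1 product, MxA, is cytoplasmic and best known for blocking influenza and other RNA viruses, whereas the MX2 product, MxB, sits largely at nuclear pores and is known for restricting HIV and herpesviruses. Both are classical interferon-stimulated genes. Type I interferon binds the IFNAR1 and IFNAR2 receptor chains and activates the kinases JAK1 and TYK2, and a transcription factor complex that includes STAT2 and IRF9 then binds the interferon-stimulated response elements of such genes. SP100, the targeted gene, encodes a component of PML nuclear bodies and is itself induced by interferon.

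The coding sequences of the paralogues are shown first, because reads from identical stretches could come from either gene. In the GENCODE 29 transcripts the coding sequences were 1986 bases (MX1) and 2145 bases (MX2), and 1374 of 1974 aligned bases, or 69.6%, were identical. The longest run of identical bases was 68, and no longer run was found between any of the 18 annotated MX1 and 13 annotated MX2 transcripts. That run covers the stretch that encodes the phosphate-binding loop of the GTPase domain. It is shown in capitals within 128 bases of each coding sequence, which span coding positions 157 to 284 of MX1 and 301 to 428 of MX2.
MX1: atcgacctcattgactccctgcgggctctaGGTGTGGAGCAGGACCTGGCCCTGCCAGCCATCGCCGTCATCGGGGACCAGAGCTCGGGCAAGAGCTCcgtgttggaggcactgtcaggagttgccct
MX2: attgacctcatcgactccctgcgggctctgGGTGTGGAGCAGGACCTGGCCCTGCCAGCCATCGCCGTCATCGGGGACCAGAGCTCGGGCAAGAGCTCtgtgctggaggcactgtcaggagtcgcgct
Read length, and how reads from such shared stretches were assigned to the paralogues, are not given in the sources used here.

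Upstream of MX1, the RefSeq promoter table (GRCh38.p14) listed 3 transcription starts, all on the plus strand. The windows, 250 bases before and 50 after each start, were searched on both strands for the spaced repeats GAAANGAAA and GAAANNGAAA, the core of interferon-stimulated response elements. All 3 MX1 windows held a match, whereas 6.40% of the 35116 promoters in the table did. Of the other interferon-stimulated genes followed here, 29 of 35 promoters (82.9%) held one. At the start with the lowest coordinate the matches GAAATGAAA and GAAACCGAAA overlapped, beginning 7 and 12 bases after the start, and are in capitals in this 30-base window at chr21:41420554-41420583.
MX1 start 1: ccagcgagcaGAAATGAAACCGAAActgaa
A further match lay on the minus strand at position -19 from that start, and the third start had its match at position -196. The 250 bases before the second start, chr21:41425989-41426238, held 2 matches on the minus strand, in capitals.
MX1 start 2: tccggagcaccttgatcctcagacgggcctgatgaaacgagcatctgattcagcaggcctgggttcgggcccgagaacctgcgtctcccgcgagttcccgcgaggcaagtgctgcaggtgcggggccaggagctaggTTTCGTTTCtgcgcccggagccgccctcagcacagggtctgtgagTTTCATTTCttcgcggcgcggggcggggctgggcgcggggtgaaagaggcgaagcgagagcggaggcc
These matches are letters in the reference sequence, and no binding was measured in these samples.

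SP100 RNA was lower in the KO libraries than in the WT libraries at each time (14.2 to 16.0 against 27.9 to 31.9 RPKM untreated, 86.5 to 93.2 against 151 to 172 RPKM at 12 h, 57.4 to 62.4 against 124 to 131 RPKM at 48 h) but was not absent. Relative depth, read from the step of the lowest values, ranged from 0.841 to 1.27 of the mean. All 10 keratinocyte markers were in the table and summed to 19450 to 23080 RPKM. Of 8 fibroblast markers 3 were in the table (COL1A1, FBLN1 and PDGFRB), summing to 11.1 to 17.5 RPKM, and of 5 melanocyte markers 1 was (PMEL, 0.37 to 1.57 RPKM). Of 8 leukocyte markers 3 were in the table (CD14, CD68 and ITGAM), and their sum was higher under interferon and, untreated and at 12 h, lower in KO, at 24.2 to 25.5 RPKM (WT) and 19.7 to 21.2 RPKM (KO) untreated, 54.1 to 59.2 and 45.2 to 51.8 RPKM at 12 h, and 38.1 to 43.4 and 36.2 to 40.8 RPKM at 48 h. Most of the leukocyte sum was CD68, with means of 19.5 RPKM untreated and 52.9 RPKM at 12 h in WT, and 15.0 and 47.9 RPKM in KO. CD14 went the other way, from 5.09 to 2.40 RPKM in WT and from 5.21 to 1.43 RPKM in KO. The part of these markers in the results was not tested.

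MX1 went from barely detected to among the most abundant transcripts. Untreated levels were 0.41, 0.22 and 0.32 RPKM (WT) and 0.22, 0.28 and 0.17 RPKM (KO). After 12 h of interferon MX1 stood at 577.1, 575.0 and 588.4 RPKM in WT cells and at 811.6, 803.7 and 808.0 RPKM in KO cells. After 48 h the values were 363.8, 357.4 and 347.7 RPKM in WT and 483.3, 486.2 and 477.9 RPKM in KO. Every treated library was above every untreated library, and at both times every KO library was above every WT library. The group means were 580 ± 7.18 and 808 ± 3.97 RPKM at 12 h and 356 ± 8.09 and 482 ± 4.22 RPKM at 48 h in WT and KO, respectively (SD, n = 3).

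MX2 followed the same course at a lower level, without the higher values in KO. Untreated cells had it listed at 0.02, 0 and 0 RPKM (WT) and at 0, 0.12 and 0 RPKM (KO). After 12 h MX2 stood at 223.2, 232.8 and 237.7 RPKM in WT cells and at 226.0, 224.4 and 223.3 RPKM in KO cells. After 48 h the values were 157.2, 152.3 and 154.1 RPKM in WT and 149.2, 139.2 and 144.4 RPKM in KO. The genotypes overlapped at 12 h, whereas at 48 h all KO libraries lay below all WT libraries. The group means were 231 ± 7.38 (WT) and 225 ± 1.34 (KO) RPKM at 12 h and 155 ± 2.48 (WT) and 144 ± 5.04 (KO) RPKM at 48 h (SD, n = 3).

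**Figure D1:**
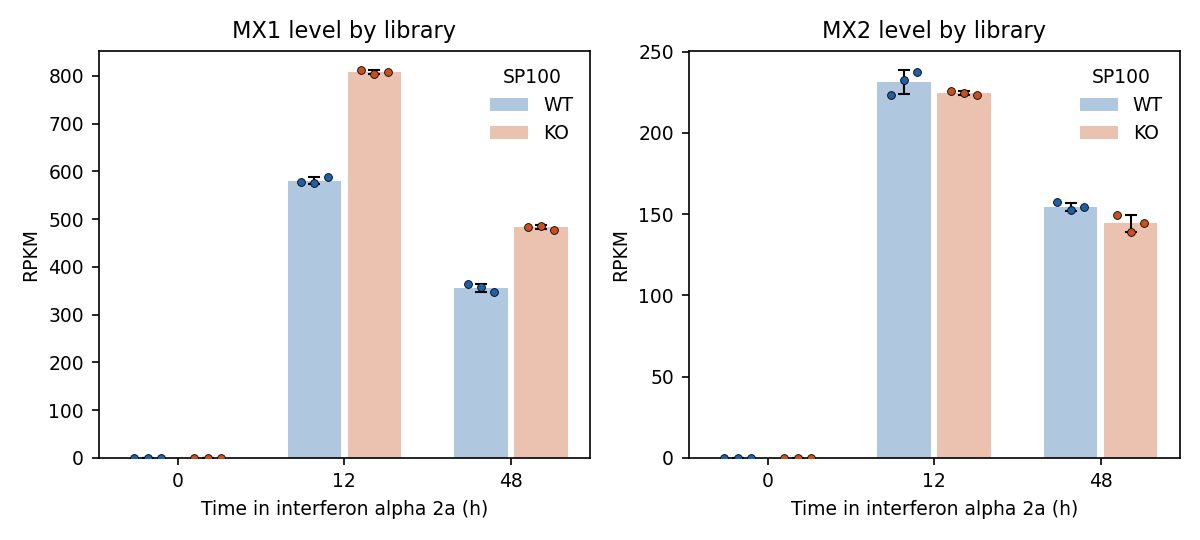
RPKM of MX1 (left) and MX2 (right) in each library (points) against hours in interferon alpha 2a, with bars for the mean of 3 libraries and error bars for the SD. The MX1 points in KO sit above those in WT at 12 h (803.7 to 811.6 against 575.0 to 588.4 RPKM), while the MX2 points of the genotypes overlap at 12 h.

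The order of the MX1 levels was thus KO at 12 h, WT at 12 h, KO at 48 h, WT at 48 h, and then the untreated groups. Neighbours in that order did not overlap, apart from the untreated groups. For MX2 the order was WT and KO at 12 h, which overlapped, then WT and KO at 48 h, then the untreated groups, which overlapped. Ranked by mean RPKM among the 13280 genes, MX1 stood at position 178 in WT and 138 in KO at 12 h, and at 257 and 195 at 48 h. MX2 stood at 405 and 420 at 12 h and at 626 and 675 at 48 h. In bulk RNA a higher level per cell and a larger share of responding cells cannot be told apart.

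The response to interferon was tested on log2(RPKM + 1) with limma over all 18 libraries, with p-values adjusted over 13280 genes. In WT cells the log2 rise of MX1 was 8.79 ± 0.045 (SE) after 12 h and 8.09 after 48 h. In KO cells it was 9.37 and 8.63. At 12 h its adjusted p was 9.42e-24 in WT and 3.46e-24 in KO. The log2 rise of MX2 was 7.85 ± 0.0453 (SE) after 12 h and 7.27 after 48 h in WT cells, against 7.76 and 7.13 in KO cells. MX2 also passed the limma threshold of 0.05 in all 4 comparisons. In WT, 15.1% of the genes tested were called higher at 12 h and 6.52% at 48 h, and in KO 16.0% and 5.90%. Counts of small changes at 12 h depended on scaling: 2005 genes were higher and 3959 lower in WT, against 2892 and 2717 under median-of-ratios scaling, and 2123 and 4362 against 3153 and 3040 in KO. Only 1.64% (12 h, WT), 1.04% (48 h, WT), 1.75% (12 h, KO) and 0.994% (48 h, KO) were called and at least 2-fold higher.

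By the size of the log2 change, MX1 ranked 2 and MX2 ranked 5 of 13280 genes at 12 h in WT. In KO at 12 h MX1 ranked 1 and MX2 ranked 6. At 48 h MX1 ranked 4 and 3, and MX2 ranked 6 and 7, in WT and KO. Because both genes start near 0, these changes depend on the added constant and understate the ratio of the levels. With a constant of 0.1 in place of 1 the change at 12 h in WT was 10.47 for MX1 and 11.09 for MX2, which put MX2 ahead of MX1, whereas in KO it was 11.3 for MX1 and 10.75 for MX2. At 48 h MX1 rose by 9.77 and MX2 by 10.51 in WT on that scale, against 10.56 for MX1 and 10.12 for MX2 in KO.

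Under interferon, KO cells held more MX1 RNA than WT cells, and no rise of MX2 RNA in KO was called. MX1 in KO was at 139.2% of the WT mean at 12 h and at 135.4% at 48 h. The log2 difference was 0.48 at 12 h (95% interval 0.38 to 0.57, limma adjusted p = 7.16e-06) and 0.44 at 48 h (0.34 to 0.53, limma adjusted p = 1.73e-05). On the RPKM + 1 scale these are 1.392-fold (1.302 to 1.487) and 1.353-fold (1.267 to 1.446). Of all genes tested, 1.60% were called higher in KO at 12 h, 2.03% at 48 h, and 0.873% at both times. With a constant of 0.1 the difference at 48 h was still 0.44, but its SE was 0.125 and its limma adjusted p was 0.0672. At 12 h the call held under all alternatives, with limma adjusted p-values of 1.73e-06 to 0.0455.

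In untreated cells MX1 differed by -0.10 between KO and WT (unadjusted p = 0.0341, limma adjusted p = 0.227), where 2.82% of genes were called higher and 2.07% lower. That MX1 difference was -0.054 without WT replicate 1, -0.16 without WT replicate 2 (limma adjusted p = 0.052) and -0.35 with a constant of 0.1 (limma adjusted p = 0.135). MX2 differed by 0.045 untreated (limma adjusted p = 0.668) and by -0.04 at 12 h (95% interval -0.14 to 0.05, limma adjusted p = 0.707). In fold terms the 12 h interval for MX2 ran from 0.909 to 1.04, below the whole interval for MX1. At 48 h MX2 in KO was at 93.4% of the WT mean, a log2 difference of -0.10 (95% interval -0.20 to -0.003). Its unadjusted p of 0.0442 became 0.287 after limma's adjustment over all genes.

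The interaction term asks whether the rise over untreated cells differed between the genotypes. For MX1 the rise was larger in KO by 0.58 at 12 h (95% interval 0.45 to 0.72, limma adjusted p = 0.000311) and by 0.54 at 48 h (0.41 to 0.68, limma adjusted p = 0.00118). For MX2 it differed by -0.09 at 12 h (limma adjusted p = 0.942) and by -0.14 at 48 h (95% interval -0.28 to -0.008, unadjusted p = 0.0392, limma adjusted p = 0.779). Only 10 genes, or 0.0753% of those tested, were called with a larger rise in KO at 12 h, and 9 genes (0.0678%) at 48 h. At an unadjusted limma p under 0.05 there were 301 and 323 such genes. By the size of the interaction MX1 ranked 170 of 13280 genes at 12 h and 211 at 48 h. Leaving out each library in turn gave 6 to 10 called genes at 12 h and 7 to 9 at 48 h. The count at 12 h was 6 without untreated KO replicate 1 or 2, KO replicate 1 or 3 at 12 h, KO replicate 1 at 48 h, or WT replicate 2 or 3 at 48 h. The MX1 calls ended with a constant of 0.1, where the interaction was 0.83 at 12 h and 0.79 at 48 h (limma adjusted p = 0.133 and 0.243). At 48 h the call also ended in a fit on the libraries of that comparison alone (0.54, limma adjusted p = 0.0624).

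The other 9 genes called at 12 h were all called lower in untreated KO than in untreated WT cells, where MX1 was not. Of these 9, 0 was called higher in KO at 12 h, where MX1 was. Of all genes, 2.07% were called lower in untreated KO and 1.60% higher in KO at 12 h. The interaction subtracts the untreated difference, so a low untreated KO level helped to select these genes and is no separate result. The 9 genes included IFIT1, which binds foreign RNA ends, the ubiquitin-like modifier ISG15 and its ligase HERC5. The others were IFI44, IFIT2, IFIT3, OASL, IGF2 and INHBA. IFIT1, for example, started from 4.32 ± 0.723 RPKM (WT) and 0.953 ± 0.231 RPKM (KO) and reached 627 ± 19.9 and 628 ± 6.53 RPKM at 12 h (SD, n = 3). Untreated MX1 lay near the floor, with means of 0.317 RPKM (WT) and 0.223 RPKM (KO), where log2(RPKM + 1) compresses differences. Its untreated difference of -0.10 is also part of its interaction. The other 8 genes called at 48 h were likewise all lower in untreated KO cells, which helped to select them in the same way. Of these 8, 0 was called higher in KO at 48 h, where 2.03% of all genes were. These genes were named after their values had been seen.

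The paralogues were then compared within each library, where the scaling of the library cancels. RPKM corrects for gene length, so the ratio compares abundance per length. The MX1 to MX2 ratio was 2.59, 2.47 and 2.48 in WT at 12 h, and 3.59, 3.58 and 3.62 in KO at 12 h. It was 2.31, 2.35 and 2.26 in WT at 48 h, and 3.24, 3.49 and 3.31 in KO at 48 h. MX1 was the more abundant paralogue in all 12 treated libraries, and the KO libraries had the higher ratio at each time without overlap.

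The mean ratio was 2.51 ± 0.0653 (WT) and 3.597 ± 0.0193 (KO) at 12 h, and 2.30 ± 0.0454 (WT) and 3.35 ± 0.132 (KO) at 48 h (SD, n = 3). Two-sided exact permutation tests were run on log2((MX1 + 1)/(MX2 + 1)), with Benjamini-Hochberg adjustment over 6 tests. KO exceeded WT by 0.52 (12 h) and 0.54 (48 h), both with an exact p of 0.1, and no split of 3 against 3 libraries can give a smaller value. With genotype permuted within each time over 400 assignments, KO exceeded WT by 0.53, or 1.44-fold (exact p = 0.005, the smallest possible, adjusted p = 0.015). The higher ratio in KO was seen in 6 of 6 comparisons of a KO library with the highest WT library of its time.

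**Figure D2:**
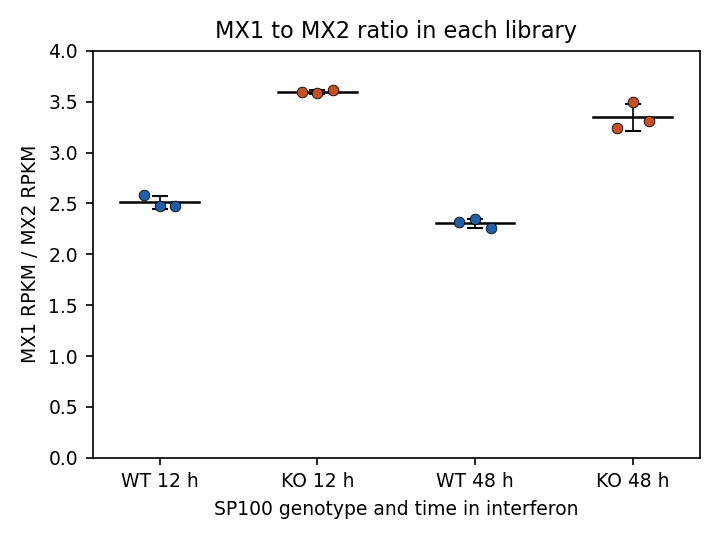
Ratio of MX1 RPKM to MX2 RPKM in each treated library (points), with the mean (line) and SD (error bar) of 3 libraries, for WT and KO at 12 and 48 h. Every KO point lies above 3.2 and every WT point below 2.6, and in each genotype the 48 h points lie below the 12 h points.

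Both genes declined between 12 and 48 h, and MX1 declined slightly more. The MX1 mean at 48 h was 61.4% of that at 12 h in WT and 59.7% in KO, and the MX2 mean was 66.8% and 64.2%. On the log2 scale MX1 fell by 0.70 in WT and by 0.74 in KO (limma adjusted p = 1.54e-08 and 6.29e-09), and MX2 fell by 0.58 and 0.64 (limma adjusted p = 1.61e-07 and 3.74e-08). Of all genes tested, 11.3% were called lower at 48 than at 12 h in WT and 14.0% in KO. Under median-of-ratios scaling the split of higher and lower genes went from 3267 and 1505 to 2138 and 2415 in WT, and from 3678 and 1860 to 2532 and 2803 in KO, and both MX genes remained called lower. The MX1 to MX2 ratio was lower at 48 h by 0.12 in WT and 0.11 in KO, and the groups did not overlap in either genotype. Over both genotypes the change was -0.12, or 0.923-fold (exact permutation p = 0.005, adjusted p = 0.015).

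The decline did not differ detectably between the genotypes. The interaction of the 12 to 48 h change with genotype was -0.04 for MX1 (95% interval -0.18 to 0.09, limma adjusted p = 0.944) and -0.06 for MX2 (limma adjusted p = 0.905). For no gene did limma call this interaction, while 904 genes had an unadjusted p under 0.05.

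Other interferon-stimulated genes were followed as a comparison set of 34 symbols, of which 32 were tested. All 32 were called higher at 12 and 48 h in both genotypes. Of all genes, 15.1% and 6.52% were called higher at 12 and 48 h in WT, and 16.0% and 5.90% in KO. The median log2 change of the 32 genes at 12 h was 4.49 in WT and 4.81 in KO, against 8.79 and 9.37 for MX1. Some of the 32, such as IFI44L, CMPK2 and RSAD2, passed the filter only through treated libraries, as the MX genes did. Between KO and WT at 12 h only IRF7, the transcription factor that amplifies interferon production, was called higher, beside 1.60% of all genes. It was at 28.4 ± 1.57 RPKM in WT and 52.2 ± 3.01 RPKM in KO (SD, n = 3), a log2 difference of 0.86 (limma adjusted p = 0.000263). HERC5 (-0.40) and IFITM3 (-0.29), a membrane protein that blocks viral entry, were called lower, as were 2.02% of all genes. The median difference of the 32 genes was 0.000113, and 4 were higher and 6 lower at an unadjusted p under 0.05.

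At 48 h IRF7 was again the only comparison gene called higher in KO, at 25.1 ± 2.78 against 15.9 ± 0.838 RPKM in WT (SD, n = 3), a log2 difference of 0.63 (limma adjusted p = 0.00352). Of all genes, 2.03% were called higher in KO at 48 h. Called lower were 7 of the 32, with 2.16% of all genes called lower. They included HERC5 (-0.54), the apoptosis-linked XAF1 (-0.44), the translation inhibitor SAMD9 (-0.39), IFIT1 (-0.31) and OASL (-0.25), a relative of the oligoadenylate synthetases. The median difference was -0.16. The count of 7 was 4 without WT replicate 1 or 2 or KO replicate 1 or 2 at 48 h, and 4 with a constant of 0.1, where IRF7 was no longer called.

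**Figure D3:**
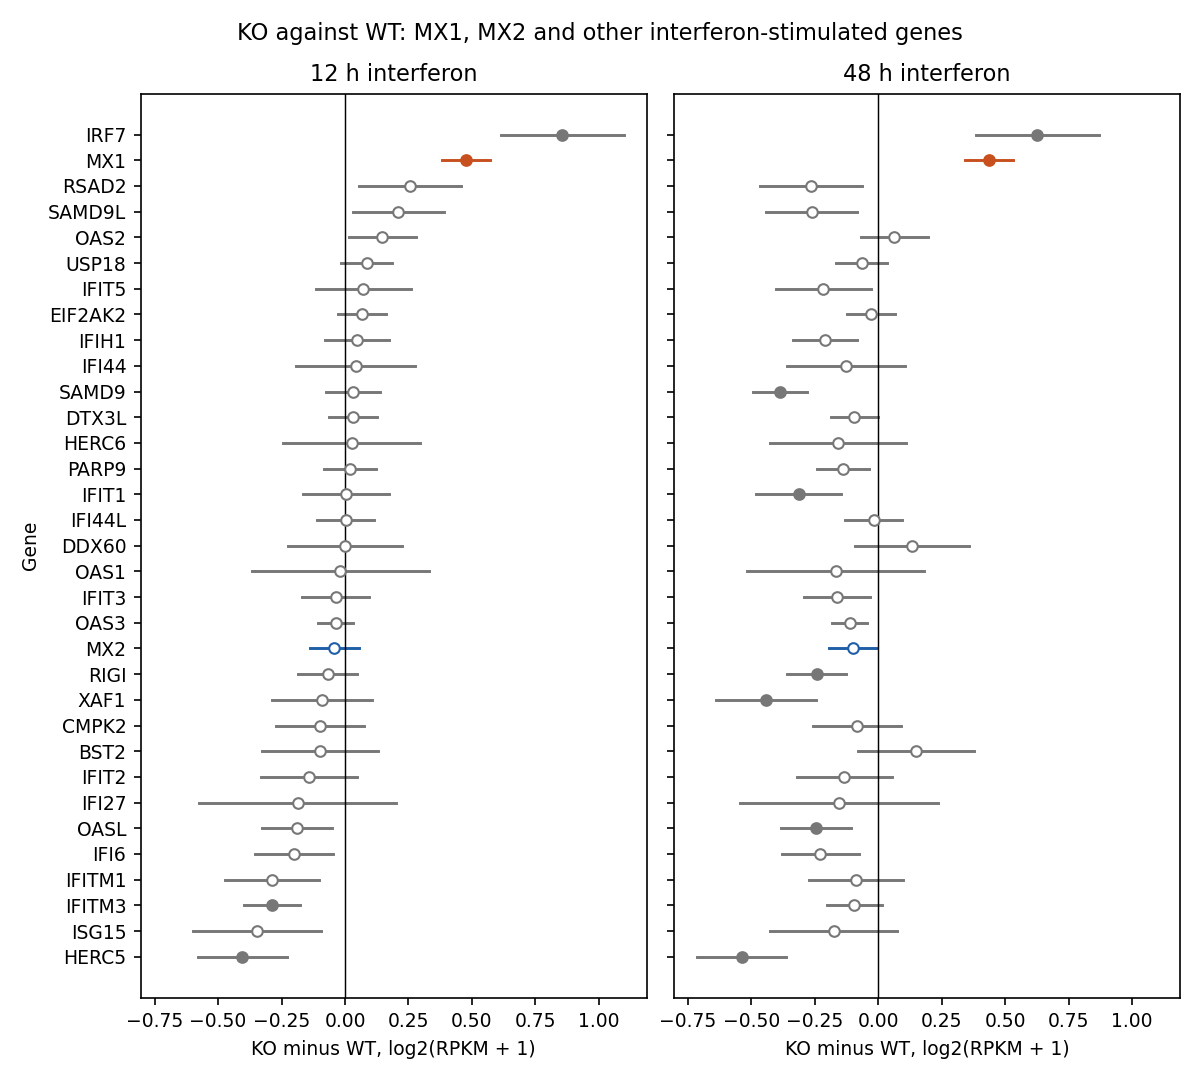
Difference between KO and WT in log2(RPKM + 1) for MX1 (orange), MX2 (blue) and other tested interferon-stimulated genes at 12 h (left) and 48 h (right), with 95% intervals from limma and filled points where the adjusted p is under 0.05. MX1 (0.48 and 0.44) and IRF7 (0.86 and 0.63) stand above 0 in both panels, and MX2 lies among the other genes.

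Among all 196 genes that rose at least 2-fold at 12 h in both genotypes, 5 were called higher and 14 lower in KO at 12 h. At 48 h 3 were called higher and 28 lower. Of all genes tested, 1.60% were called higher and 2.02% lower at 12 h, and 2.03% and 2.16% at 48 h. The counts called higher were near these shares. MX1 was 1 of 3 called higher at both times, with IRF7 and NFE2L3, a CNC-family transcription factor, while 9 were called lower at both. Over all genes tested, 0.873% were called higher and 1.08% lower at both times. NFE2L3 was already higher in untreated KO cells (0.61, limma adjusted p = 0.000267), whereas IRF7 (0.33, limma adjusted p = 0.123) and MX1 were not called there. By the size of the difference MX1 ranked 5 of 196 at 12 h and 4 of 196 at 48 h, and MX2 ranked 115 and 100. Between 12 and 48 h, 153 of these genes fell and 16 rose in WT, and 160 fell and 16 rose in KO. Of all genes tested, 11.3% were called lower and 24.6% higher in WT, and 14.0% and 27.7% in KO. The 196 genes were chosen by their rise at 12 h, which favours a fall after it. Their median change was -0.62 in WT and -0.74 in KO, close to the values of both MX genes, which are among them.

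The signalling genes upstream of the MX genes changed less than the MX genes themselves. At 12 h in WT the transcription factor genes IRF9 (3.36) and STAT2 (2.34) and the kinase gene JAK1 (0.31) rose, and the receptor gene IFNAR2 fell by 0.50, in a comparison where 15.1% of all genes rose and 29.8% fell. TYK2 (0.13) and IFNAR1 (-0.18) did not pass the test. At 48 h in WT IRF9 (3.37) and STAT2 (1.89) were called higher and none of these genes lower, beside 6.52% of all genes higher and 6.30% lower. In KO IRF9 rose by 3.98 and 3.86 at 12 and 48 h, and STAT2 by 2.35 and 1.88, where 16.0% and 5.90% of all genes rose. IFNAR2 (-0.63) and IFNAR1 (-0.21) fell in KO at 12 h and neither was called at 48 h, where 32.8% and 7.42% of all genes fell. Between KO and WT, none of these 6 genes was called at 12 or 48 h, and 2 at 12 h and 0 at 48 h had an unadjusted p under 0.05. Of all genes, 1.60% were called higher and 2.02% lower at 12 h, and 2.03% and 2.16% at 48 h. A count of 0 in 6 genes therefore does not set these genes apart. In untreated KO cells IRF9 was lower (-0.53, limma adjusted p = 0.0109), beside 2.07% of all genes called lower.

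Of the 4 feedback inhibitors of the pathway, SOCS1 stayed below the filter. In WT cells USP18, which blocks the receptor, rose by 5.07 (12 h) and 4.08 (48 h), and ISG15 by 5.93 and 5.32, where 15.1% and 6.52% of all genes rose. SOCS3 did not pass the test at either time (0.15 and -0.17). In untreated KO cells USP18 was higher (0.32, limma adjusted p = 0.000629) and ISG15 lower (-1.36, limma adjusted p = 2.16e-06), beside 2.82% of all genes higher and 2.07% lower. None of the 3 tested genes was called between KO and WT at 12 or 48 h, where 1 at 12 h and 0 at 48 h had an unadjusted p under 0.05. Of all genes, 1.60% were called higher and 2.02% lower at 12 h, and 2.03% and 2.16% at 48 h. A count of 0 in 3 genes is thus near the share of all genes.

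MX1 and MX2 belong to the dynamin superfamily, and 12 of 17 relatives were tested. At 12 h in WT 5 rose and 1 fell, beside 15.1% of all genes higher and 29.8% lower. The interferon-induced guanylate-binding proteins rose most, GBP1 by 3.36, GBP3 by 1.71, GBP4 by 1.23 and GBP6 by 0.98. GBP4 was at most 0.37 RPKM at 0 and 48 h, so it passed the filter only through the 12 h libraries, where it was higher. The endoplasmic reticulum GTPase ATL2 rose by 0.22 and DNM3, a dynamin of endocytosis, fell by 0.70. At 48 h in WT only GBP1 (2.26) and GBP3 (1.07) were called, beside 6.52% of all genes higher and 6.30% lower. Between KO and WT 0 of the 12 were called at 12 h, and 0 had an unadjusted p under 0.05, where 1.60% of all genes were called higher and 2.02% lower. At 48 h, with 2.16% of all genes called lower, GBP1 alone of the 12 was lower in KO, at 9.38 ± 0.83 against 15.0 ± 0.793 RPKM (SD, n = 3), a log2 difference of -0.63 (limma adjusted p = 4.68e-05).

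The protein-coding genes on either side of MX2 and MX1 were compared in the same way. In the RefSeq order the genes run DSCAM, BACE2, FAM3B, MX2, MX1, TMPRSS2, RIPK4, PRDM15, C2CD2 and ZBTB21. With PLAC4 these made 9 listed neighbours, of which 6 were tested. At 12 h in WT 2 rose and 2 fell, beside 15.1% of all genes higher and 29.8% lower, and none of them changed by as much as 2-fold. The protease gene BACE2 rose by 0.18 and the adhesion molecule gene DSCAM by 0.36, while the epidermal kinase gene RIPK4 fell by 0.27 and C2CD2 by 0.59. DSCAM was at most 0.81 RPKM at 0 and 48 h, so it passed the filter only through the 12 h libraries, where it was higher. Between KO and WT 0 of the 6 were called at any time, with 1 higher at an unadjusted p under 0.05 each time. Of all genes, 1.60% were called higher and 2.02% lower at 12 h, 2.82% and 2.07% in untreated cells, and 2.03% and 2.16% at 48 h, so that a count of 0 in 6 genes does not set the neighbours apart. Their differences at 12 h ranged from -0.20 (C2CD2) to 0.35 (PRDM15), with a median of 0.076.

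Proteins known to work with MX proteins were encoded by 6 further genes, all tested. They include the helicases DDX39A and DDX39B, which bind MxA, and cyclophilin A (PPIA) and CPSF6, host factors of the HIV capsid that MxB recognises. At 12 h in WT DDX39A rose by 0.16 and CPSF6 fell by 0.16, where median-of-ratios scaling moved the median of all genes by 0.083 and CPSF6 was no longer called. In that comparison 15.1% of all genes were called higher and 29.8% lower. KO and WT differed in 0 of the 6 at 12 h (1 at an unadjusted p under 0.05) and in 0 at 48 h (0 at an unadjusted p under 0.05). With 1.60% of all genes called higher and 2.02% lower at 12 h, and 2.03% and 2.16% at 48 h, this does not set the 6 apart. In untreated cells PPIA (0.13) and the phosphatase subunit gene PPP1CB (0.19) were higher in KO, but neither was called under median-of-ratios scaling. There 2.82% of all genes were called higher before that scaling.

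Likeness of pattern was measured as the root-mean-square difference of log2(RPKM + 1) profiles over the 18 libraries, each gene centred on its own mean. Nearest to MX1 were MX2 at 0.62 (Pearson r = 0.9985), IFI6 at 0.72, IFI44L at 0.90, IFI27 at 0.99 and IFIT1 at 1.00. Nearest to MX2 were IFI44L at 0.47 (r = 0.9918), IFIT1 at 0.60, MX1 at 0.62, IFIT3 at 0.74 and ISG15 at 0.76. These values describe the step from untreated to treated cells, which all 18 libraries share. IFI6, IFI27 and IFI44L went on rising from 12 to 48 h while the MX genes fell, and IFIT1 reached the level of MX1 at 12 h in WT but not in KO.

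**Figure D4:**
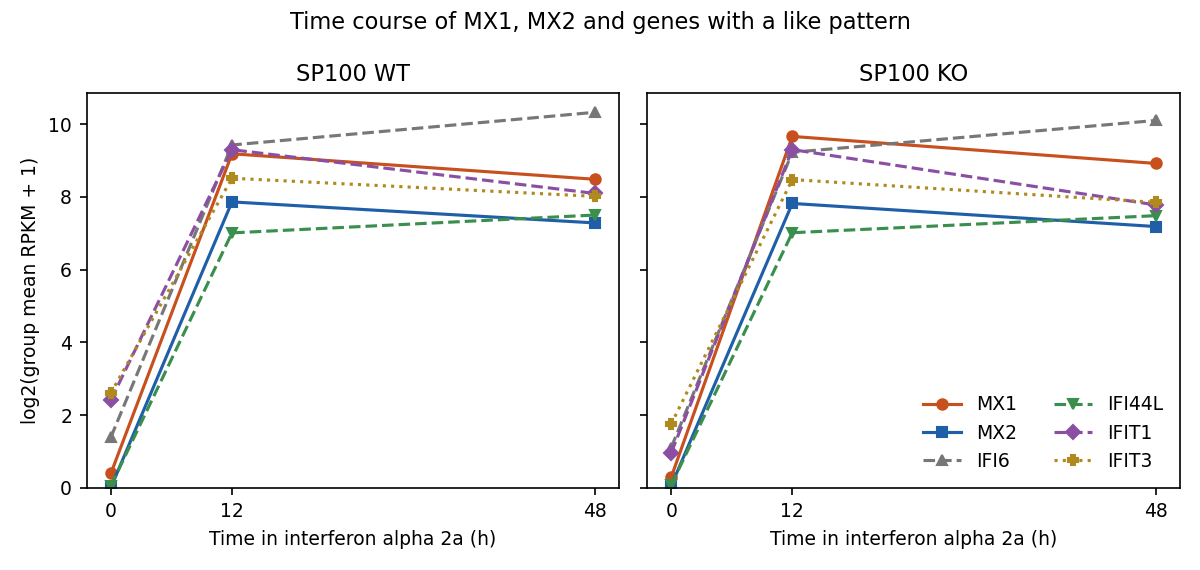
log2 of group mean RPKM + 1 (3 libraries each) against hours in interferon for MX1, MX2, IFI6, IFI44L, IFIT1 and IFIT3, in WT (left) and KO (right). IFI27 and ISG15, also among the nearest genes, are not plotted. MX1 is the highest of the 6 plotted genes at 12 h in KO, and MX1 and MX2 fall from 12 to 48 h while IFI6 and IFI44L rise.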

How the data were processed

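Strand-specific polyA RNA libraries of 18 NIKS samples were analysed. The authors deposited a single table of RPKM values per gene. The submitters' processing notes name cutadapt, STAR 2.6.1, RSEM 1.3.0, limma 3.50.3 and hg19, with no role or order, and the reads behind the per-million total are not given in the sources used here. Symbols were found for 15666 of 16472 Ensembl identifiers.

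Genes that reached 1 RPKM in 3 or more libraries were tested on log2(RPKM + 1) with limma 3.58.1 in R 4.3.3, as 6 group means with a mean-variance trend and Benjamini-Hochberg adjustment over 13280 genes, and called at an adjusted p under 0.05. Paralogue ratios were tested in Python 3.11.15 by exact permutation. Depth is known only in relative terms (98.7% of library pairs matched a whole-read step within 3%), so no counting intervals are given. Alternatives were a pseudocount of 0.1, no filter, a filter at a mean of 5 RPKM, scaling by median of ratios, the libraries of the comparison alone, no trend, a replicate block and each library left out. The scripts were tested on simulated data. MX1, MX2, SP100, called list members (at most 5 per comparison) and the 5 nearest genes by pattern were named. A list member is not reported here. The members and lists were chosen with earlier results of these data known. Promoters come from RefSeq (GRCh38.p14), coding sequences from GENCODE 29; MX1 matched the promoter table, and MX2 is named only.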

Additional observations from a re-analysis of the deposited data

Results flagged for a closer look

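The rise of MX1 in interferon differed between the genotypes, by a test of the difference itself. The limma interaction term on log2(RPKM + 1) was 0.5814 at 12 h (SE 0.0637, adjusted p = 0.000311) and 0.5412 at 48 h (SE 0.0637, adjusted p = 0.00118), with a larger rise in KO. All 3 KO libraries were above all 3 WT libraries at both times. With a pseudocount of 0.1 neither call held (adjusted p = 0.133 at 12 h and 0.243 at 48 h), and at 48 h the call was also lost with only the libraries of the comparison (adjusted p = 0.0624).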

How the results depend on the processing

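Of 300 alternative values for MX1, 296 kept their direction and their side of the threshold, as did 299 of 300 for MX2 and 58 of 60 for the ratio. Many of these values could not change. Leaving out a library of a group outside a comparison does not move its estimate. The ratio tests within 1 time or 1 genotype can give no p under 0.1, so they could not cross 0.05. With a pseudocount of 0.1, MX1 between KO and WT at 48 h was 0.4376 (limma adjusted p = 0.0672), and its interaction was 0.8315 at 12 h and 0.7916 at 48 h (limma adjusted p = 0.133 and 0.243). With only the libraries of the comparison, the MX1 interaction at 48 h was 0.5412 (limma adjusted p = 0.0624). The cause was not tested. Without KO replicate 2, the untreated KO library with MX2 above 0, MX2 between untreated KO and WT went from 0.045 to -0.0095, with leave-one-out values of -0.0095 to 0.072. Leaving out each library in turn gave 0.471 to 0.487 for MX1 between KO and WT at 12 h and 0.419 to 0.452 at 48 h.

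Of the 32 comparison genes, the libraries of the comparison alone gave 2 higher and 5 lower in KO at 12 h and 4 lower at 48 h, and a pseudocount of 0.1 gave 1 lower at 12 h, and 0 higher and 4 lower at 48 h. Leaving out each library gave 1 to 2 higher (2 without WT untreated replicate 1) and 1 to 3 lower at 12 h (1 without KO replicate 2 at 12 h), and 4 to 10 lower at 48 h. Over all genes, the libraries of the comparison alone gave 6 in place of 10 genes called with a larger rise in KO at 12 h, and 3 in place of 9 at 48 h. For KO against WT they gave 148 higher and 158 lower in place of 375 and 275 untreated, 81 and 132 in place of 213 and 268 at 12 h, and 117 and 133 in place of 269 and 287 at 48 h. For interferon at 48 h in KO they gave 443 and 502 in place of 784 and 986. Leaving out each library gave 199 to 376 genes higher and 182 to 287 lower in untreated KO (fewest higher without WT replicate 2, with 208, 215 and 229 without KO replicate 1, KO replicate 2 and WT replicate 3, and fewest lower without KO replicate 2), 136 to 217 and 174 to 280 at 12 h (136 to 140 higher without replicate 1 or 3 of either genotype, and 174 and 177 lower without replicate 1 of WT and of KO), and 174 to 265 and 194 to 290 at 48 h (174 higher without KO replicate 1). For interferon at 48 h in KO it gave 609 to 995 lower, with 609 and 654 without KO untreated replicate 1 and KO replicate 2 at 48 h. Counts of the other lists moved by over 1.5 times most often for the 6 MX partner genes, in 56 of 450 values.

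Replicate numbers were tested for pairing. Same-numbered libraries of different groups had a median correlation of -0.0126 in their deviations from the group means (45 pairs, -0.0972 to 0.157). Pairs with different numbers had 0.0084 (90 pairs), and 2 of 18 libraries correlated best with their own number. No pairing by number was seen. Such a check cannot show that same-numbered libraries had no batch or culture day in common. With the number as a block, limma changed no call for MX1 or MX2 (MX1 between KO and WT at 12 h, 0.4769, adjusted p = 3.61e-05). The ratio differences kept their size, 0.527 between KO and WT and -0.116 between 48 and 12 h, with an adjusted p of 0.0938 from the 64 assignments that the block allows in exact permutation. Depth limits the untreated values, where MX2 was listed at 0 in 4 of 6 libraries.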
